A study of Mus musculus with 4 samples.

Results

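The stefin A and cystatin-domain cluster held 7 of the 32285 genes in the deposited gene table, found there by symbol: Stfa1, Stfa2, Stfa3, Stfa2l1, Cstdc4, Cstdc5 and Cstb. All 7 were present. The genes had been proposed from their UMI levels over cell types and libraries of these same data. Their levels and their differences between groups are therefore a description, with standard errors where a model was fitted and without a test.

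The cells came from ascites of female FVB mice that carried intraperitoneal tumors grown from Br-Luc, a luciferase-marked syngeneic mouse ovarian cancer line. The mice had received siRNA against Fxr1 (siFXR1-LNA) or a control siRNA (siCont), both modified with locked nucleic acid and complexed with jetPEI, and the ascites was drawn 6 weeks after the tumor cells were given. Each group had 2 single-cell libraries, and each library pooled 3 mice, so the values compare pools and not single animals. The study itself dropped 1 of its 2 treated samples, described as low in sequencing depth and cell yield, without giving its number. Both are kept here and count equally. All groups bore the tumor and received the carrier, and red cells were lysed before capture. Fxr1 itself, counted over all barcodes, was at 57.3 and 36.6 CPM (UMIs per 1000000 UMIs) in siCont replicates 1 and 2 and at 104 and 74.4 CPM in siFXR1-LNA replicates 1 and 2. Leaving hemoglobin UMIs out of the totals put siCont at 81.3 and 62.1 CPM, and siFXR1-LNA at 116 and 81.8 CPM. Replicate 1 of siCont and replicate 2 of siFXR1-LNA were then nearly level. By either measure Fxr1 was not lower in the libraries labelled siFXR1-LNA, so the groups are named here by their labels. The paper reports its lower Fxr1 for epithelial cells, a comparison that sums over all barcodes do not address.

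Cystatins are tight, reversible inhibitors of papain-like cysteine proteases, chiefly the lysosomal cathepsins. Type 1 cystatins, the stefins, lack a signal peptide and act mainly inside the cell, whereas secreted (type 2) cystatins such as cystatin C leave it. Humans have a single stefin A gene, and the mouse locus has expanded into a tandem array whose members are known from neutrophils and stratified epithelia. Stefin B, the product of Cstb, is made in most cell types and is abundant in phagocytes, which are rich in cathepsins.

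The first 6 genes lay together on chromosome 16 within chr16:36156811-36455392 (GRCm38, GENCODE vM21), a stretch of 298.582 kb with 29 annotated genes. From left to right they were Stfa2l1, Cstdc4 and Stfa1 on the plus strand, then Cstdc5, Stfa2 and Stfa3 on the minus strand. Cstb was on another chromosome, at chr10:78425669-78427622 on the plus strand. The 6 genes of the array are called the stefin A-type genes below. The 110 bases upstream of their RefSeq start sites (GRCm38.p6) are printed here because the 6 genes share runs of letters in them. Each is given 5′ to 3′ on its own gene's strand, and the capitals mark the 3 runs of at least 10 bases found in all 6.
Stfa1 (chr16:36277038-36277147, plus strand): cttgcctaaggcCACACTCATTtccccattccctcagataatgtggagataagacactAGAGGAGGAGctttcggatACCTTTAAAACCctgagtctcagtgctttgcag
Stfa2 (chr16:36408364-36408473, minus strand): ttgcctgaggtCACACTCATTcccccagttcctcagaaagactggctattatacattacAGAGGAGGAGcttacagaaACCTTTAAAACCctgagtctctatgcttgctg
Stfa3 (chr16:36455393-36455502, minus strand): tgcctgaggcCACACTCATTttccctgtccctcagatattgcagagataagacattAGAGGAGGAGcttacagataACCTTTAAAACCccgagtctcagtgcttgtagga
Stfa2l1 (chr16:36156701-36156810, plus strand): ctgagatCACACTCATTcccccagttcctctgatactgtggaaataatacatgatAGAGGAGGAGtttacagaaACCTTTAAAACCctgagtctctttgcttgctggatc
Cstdc4 (chr16:36184102-36184211, plus strand): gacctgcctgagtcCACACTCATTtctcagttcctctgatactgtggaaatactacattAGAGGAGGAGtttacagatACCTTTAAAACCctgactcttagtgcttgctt
Cstdc5 (chr16:36367571-36367680, minus strand): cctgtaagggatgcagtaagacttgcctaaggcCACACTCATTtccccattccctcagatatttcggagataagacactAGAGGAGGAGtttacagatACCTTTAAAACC

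The 3 runs stood in the same order in all 6 genes. The run nearest the start, ACCTTTAAAACC, began 32 to 36 bases upstream in Stfa1, Stfa2, Stfa3, Stfa2l1 and Cstdc4 and 12 bases upstream in Cstdc5, whose annotated start is placed closer to the shared letters. Searched on both strands in the 250 bases upstream of every start of the RefSeq table, ACCTTTAAAACC occurred in 11 of 32851 entries (0.0335%), and 9 of the 11 were in the chromosome 16 stretch. The non-member genes with it there were Csta3, Cstdc3 and Gm7260. CACACTCATT occurred in 0.0822% of the entries and AGAGGAGGAG in 0.816%. The upstream letters of any 2 of the 6 genes were 69.2% to 90.8% identical. These are matches of letters, and no binding was measured. RefSeq and GENCODE place some starts differently. By the GENCODE coordinates the printed bases of Stfa1 and Cstdc5 lie inside the gene, and those of Stfa2 do so in part.

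The copies are close enough to share reads. Transcripts of Stfa1 and Cstdc5 were 96.8% identical in all and 98.7% identical over their last 300 bases, where a 3' library reads. Of the 90-base windows in those last 300 bases, 41.7% of Cstdc5 and 18.5% of Stfa1 were found unchanged in another gene, against 3.79% for Stfa2, 3.32% for Stfa2l1 and 0% for Stfa3, Cstdc4 and Cstb. Splits of counts between Stfa1 and Cstdc5 are therefore uncertain. Their sum would be safer but is not given, so the separate values of Stfa1 and Cstdc5 below carry this limit. Gm15845, annotated on the other strand, overlaps Cstdc5, and whether the counting used strand is not given in the sources used here.

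The libraries held 101500063 and 88346685 UMIs for siCont replicates 1 and 2 and 113606837 and 78179267 for siFXR1-LNA replicates 1 and 2. After the cell filter, 16874 to 54344 barcodes remained per library. They were clustered without the 7 genes and named by markers. Hemoglobin took 29.5% and 41.1% of siCont UMIs and 10.0% and 9.11% of siFXR1-LNA UMIs. Erythrocytes made up 60.9% and 62.9% of the kept barcodes in siCont and 0.0386% and 0.356% in siFXR1-LNA. A group of 41020 cells of siFXR1-LNA replicate 1 and 5436 of replicate 2, led by Sprr1a, Ndufa4l2 and Car9, stayed unnamed, against 74 and 54 cells in siCont. Any 2 libraries shared 598 to 2882 cell barcodes, 3.45% to 7.88% of the smaller library. Intervals below are exact Poisson intervals at 95% and cover counting error only.

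Granulocytes, the cluster with raised S100a8, S100a9 and further neutrophil markers, carried most stefin A-type UMIs in every library. They held 62.9% and 69.4% of the stefin A-type UMIs of kept cells in siCont and 79.8% and 87.3% in siFXR1-LNA. The clusters numbered 444 and 902 granulocytes in siCont and 5465 and 4794 in siFXR1-LNA, that is 1.22%, 3.59%, 10.1% and 28.4% of kept cells. Over all barcodes the stefin A-type genes summed to 6.73 and 52.0 CPM in siCont and to 283 and 622 CPM in siFXR1-LNA. In a sum over all barcodes, more granulocytes and more RNA per granulocyte cannot be told apart, and so the levels below are CPM within the UMIs of one cell type. The siCont granulocytes also had more hemoglobin (24.9% and 24.6% of their UMIs, against 8.44% and 4.34%) and more of the mast cell markers (1226 and 577 CPM summed over the 5 markers, against 81.4 and 84.0 CPM). The part of these in the differences below was not tested beyond the values given without hemoglobin.

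**Figure D1:**
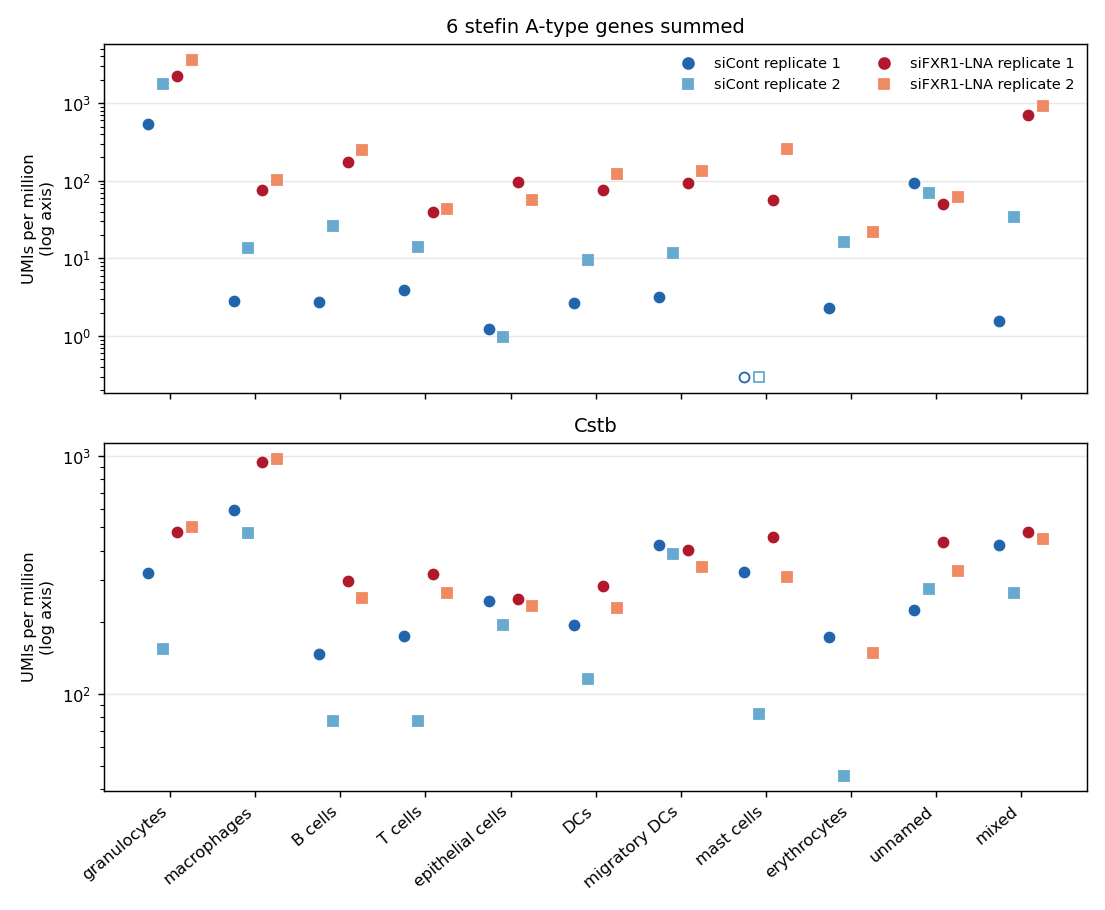
CPM of the summed stefin A-type genes and of Cstb (log axis) in each cell type with at least 50 cells in a library, one point per library, with hollow points for a value of 0. Stefin A-type levels in granulocytes, 542 to 3617 CPM, stood above those of every other named type in the same library, while Cstb was highest in macrophages in all 4 libraries.

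Summed over the 6 genes, granulocytes reached 542 and 1786 CPM in siCont and 2237 and 3617 CPM in siFXR1-LNA, with intervals of 492 to 596, 1724 to 1850, 2210 to 2265 and 3583 to 3652. The siFXR1-LNA libraries were both above the siCont libraries, but the siCont pair differed between themselves by more than siCont replicate 2 differed from siFXR1-LNA replicate 1. Means were 1164 ± 880 and 2927 ± 976 CPM (SD, n = 2), a log2 ratio of 1.33. With hemoglobin left out of the totals the sums were 722, 2369, 2443 and 3782 CPM, and siCont replicate 2 then lay close to siFXR1-LNA replicate 1. The mean difference of log2 levels was 1.53, and it was 0.67 without siCont replicate 1 and 2.39 without siCont replicate 2.

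Cstdc4 and Stfa2l1, both encoding cystatin-domain proteins of the stefin type, made up most of the stefin A-type UMIs in granulocytes. Cstdc4 was at 287 and 744 CPM in siCont and 967 and 1526 CPM in siFXR1-LNA (log2 fold change 0.95 ± 0.56, SE, edgeR fit). Stfa2l1 was at 242 and 567 CPM in siCont and 768 and 1278 CPM in siFXR1-LNA (1.02 ± 0.54). Both were lowest in siCont replicate 1 and highest in siFXR1-LNA replicate 2, and the groups did not overlap. Cstdc4 gave 52.9% of the stefin A-type UMIs in siCont replicate 1 and 41.7%, 43.2% and 42.2% in the other libraries, and Stfa2l1 gave 44.7%, then 31.7%, 34.3% and 35.3%.

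Stfa1, Stfa2 and Stfa3 encode the classical mouse stefins A1, A2 and A3. None of the 3 had a UMI in the granulocytes of siCont replicate 1, where a count of 0 allows up to 3 counts, a one-sided limit of 3.81 CPM. Stfa1 was at 207 CPM in siCont replicate 2 and at 230 and 336 CPM in siFXR1-LNA (1.02 ± 1.13). Stfa2 was at 81.6 CPM in siCont replicate 2 and at 101 and 162 CPM in siFXR1-LNA (1.22 ± 0.98). Stfa3, the least abundant, was at 21.1 CPM in siCont replicate 2 and at 33.8 and 81.0 CPM in siFXR1-LNA (1.86 ± 0.81). For all 3 genes the distance between siCont replicates 1 and 2 was larger than that from siCont replicate 2 to siFXR1-LNA replicate 1, and the fitted folds depend on the small count added to the zeros.

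Cstdc5, the close copy of Stfa1, was at 12.7 and 165 CPM in siCont and 138 and 235 CPM in siFXR1-LNA (0.65 ± 0.82). By these counts Cstdc5 was the only one of the 7 genes whose groups overlapped in granulocytes. Against siFXR1-LNA replicate 1, siCont replicate 2 was higher in Cstdc5 and lower in Stfa1. The overlap of Cstdc5 and the separation of Stfa1 thus rest on the uncertain split of counts between them. Cstb was at 322 and 155 CPM in siCont and 478 and 503 CPM in siFXR1-LNA (0.85 ± 0.43). Its order within siCont was the opposite of that of the stefin A-type genes, with replicate 1 above replicate 2. So 6 of the 7 genes had both siFXR1-LNA libraries above both siCont libraries, as did 34.7% of all 12322 genes tested. EdgeR's quasi-likelihood test called 3.16% of them in either direction. Since these values chose the genes, nothing is read from that count. Without hemoglobin in the totals the number was 5 of 7, beside 19.9% of all genes, because Stfa1 became 0, 274 (replicate 2 of siCont), 251 and 351 CPM. The median log2 fold change of the 7 genes was 1.02, beside -0.01 over all genes tested.

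**Figure D2:**
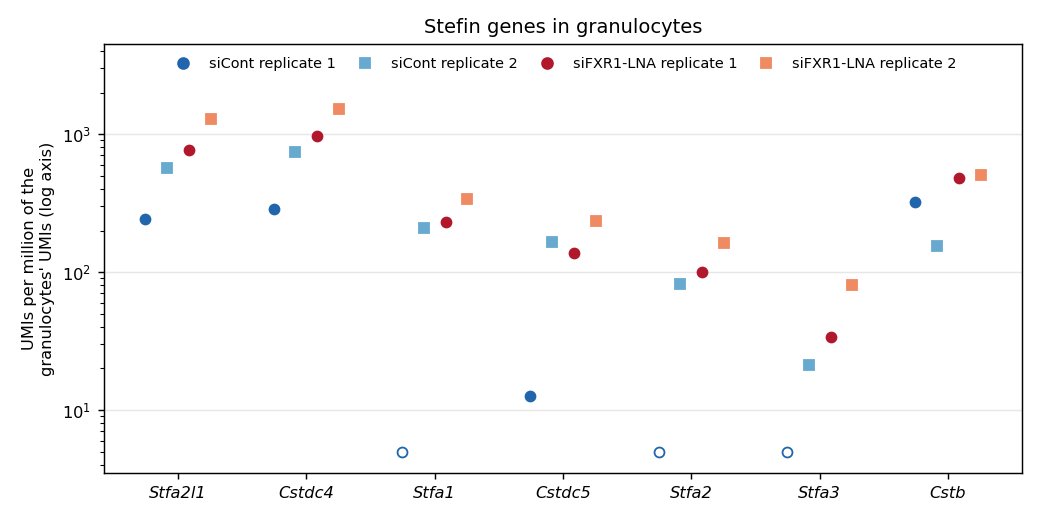
CPM of each of the 7 genes in granulocytes (log axis), one point per library, hollow and at the foot of the plot where no UMI was counted. Cstdc4 and Stfa2l1 were the most abundant in both siFXR1-LNA libraries, and siCont replicate 1 had no UMI of Stfa1, Stfa2 or Stfa3.

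Stefin A-type UMIs were spread unevenly over granulocytes. At least 1 UMI was found in 20.7% and 41.1% of siCont granulocytes and in 57.5% and 65.1% of siFXR1-LNA granulocytes, at median depths of 1551, 1415, 1870 and 2114.5 UMIs per cell. In B cells, which should lack these transcripts, the shares were 0.579%, 4.01%, 9.72% and 13.4%. Thinned to 500 UMIs per cell, the granulocyte shares were 12.1%, 27.7%, 38.5% and 46.9% and the B cell shares 0.116%, 0.980%, 3.93% and 4.85%. The order of the libraries was thus the same in both types, and the share in granulocytes was above that in B cells in every library. Cells with UMIs from at least 3 of the 6 genes were 0.225% and 5.43% of siCont granulocytes and 12.1% and 17.1% of siFXR1-LNA granulocytes. The largest sum in a single cell was 54 and 124 UMIs in siCont and 202 and 347 UMIs in siFXR1-LNA.

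Macrophages, B cells and T cells carried stefin A-type UMIs at low levels, in the same order of libraries as the granulocytes. Macrophages had 2.86 and 13.8 CPM in siCont and 77.2 and 103 CPM in siFXR1-LNA. B cells had 2.72, 26.2, 176 and 247 CPM in the same order, and T cells 3.88, 14.1, 39.3 and 43.4 CPM. Epithelial cells had 1.22, 0.960, 95.9 and 57.4 CPM and the unnamed cells 93.9, 69.0, 50.3 and 62.3 CPM, which did not keep that order. Macrophages were below B cells in 3 of the 4 libraries and within the counting interval of B cells (1.78 to 3.99 CPM) in siCont replicate 1. In both siFXR1-LNA libraries they were above T cells. Macrophages were also deeper, at medians of 4863, 7958, 5132 and 8323.5 UMIs per cell against 2385, 2721, 2025 and 2289.5 for B cells. What part free RNA or expression had in the macrophage level was not tested. The migratory DCs (3.17, 11.8, 94.0 and 136 CPM) were near or below the B cell level in each library.

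The ratio to the granulocyte alarmins S100a8 and S100a9, a pair of calcium-binding proteins abundant in neutrophils, was also taken per type. Granulocytes had 1.67 and 2.65 stefin A-type UMIs per 100 alarmin UMIs in siCont and 9.59 and 9.62 in siFXR1-LNA. B cells had 2.44, 3.71, 9.67 and 11.8, and macrophages 4.20, 3.30, 8.58 and 9.28. T cells had 6.13 and 3.65 in siCont and 7.13 and 7.05 in siFXR1-LNA. In siFXR1-LNA the ratios of granulocytes, macrophages and B cells lay close together, and in siCont macrophages, B cells and T cells were above the granulocytes. Epithelial cells, with 1.48 and 0.735 in siCont on 7 and 1 stefin A-type UMIs, were below them there and at 10.1 and 8.30 in siFXR1-LNA. In granulocytes the groups were far apart in this ratio, which does not depend on the total of the cell type or on hemoglobin. S100a8 in granulocytes was at 13715 and 28547 CPM in siCont and 10784 and 18390 CPM in siFXR1-LNA, without the separation by group that the stefin A-type sum had. With S100a9 added, the alarmins were at 32411 and 67306 CPM in siCont and 23330 and 37622 CPM in siFXR1-LNA. Fitted log2 fold changes were below 0 for S100a8 (-0.84, edgeR adjusted p = 0.450) and S100a9 (-1.16, adjusted p = 0.275). What part a lower alarmin level had in the ratio was not tested. The fitted log2 fold changes of the 7 genes in macrophages had a median of 3.60, beside 0.00 over all genes. All 7 had both siFXR1-LNA libraries above siCont, as did 24.1% of 14529 genes tested, and edgeR called 18.9% of these in either direction. In siFXR1-LNA macrophages the means of Stfa1, Stfa2 and Stfa3 were 9.84, 3.93 and 2.64 CPM. In siFXR1-LNA B cells they were 9.43, 2.90 and 1.89 CPM. Means of Stfa2l1, Cstdc4 and Cstdc5 there were lower in macrophages than in B cells. What part free RNA had in the macrophage differences of the stefin A-type genes was not tested.

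Members differed in the kind of granulocyte that carried them. Cells were split, after the data had been seen, by UMIs of Camp, Ltf and Ngp, proteins of the specific granules that are made at the myelocyte and metamyelocyte stages. The classes held no such UMI, under 5 per 1000 UMIs, or at least 5 per 1000, and the last had 10, 29, 44 and 72 cells over the libraries in the order above. The classes are ranges of a score, and a few UMIs move a cell between the first and the second. Values in this paragraph and the next are CPM with hemoglobin left out.

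Cstdc5 in siFXR1-LNA was higher in cells with more of these granule UMIs, going from 91.9 and 122 CPM in cells with none to 343 and 388 CPM and then 1577 and 2074 CPM in the class with most. Stfa2 ran from 61.5 and 86.8 CPM through 257 and 287 to 1346 and 1267 CPM. Stfa3 ran from 21.8 and 35.0 CPM through 63.7 and 118 to 555 and 946 CPM. These 3 genes were at least 10 times higher at the top than at the bottom of the split in both siFXR1-LNA libraries. S100a8 and S100a9 together also rose, from 18650 and 27276 CPM in cells with none to 157543 and 182251 CPM at the top. Cxcr2 was at 128 and 193 CPM in cells with none and at 169 and 215 CPM at the top. Stfa1, the near copy of Cstdc5, ran from 212 and 329 CPM to 976 and 998 CPM, a smaller step, though the split of counts between them is uncertain. Stfa2l1 was at 802 and 1324 CPM without granule UMIs and at 822 and 1289 CPM in the top class, and Cstdc4 at 1000 and 1532 CPM against 1582 and 1580 CPM. Cstb was lower in the top class, at 324 and 291 CPM against 540 and 551 CPM.

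In siCont, with 10 and 29 cells in the top class, no such gradient was resolved. Cstdc5 was at 192, 433 and 238 CPM over the classes of siCont replicate 2, and Stfa2 at 53.8, 364 and 249 CPM. In siCont replicate 1, whose top class had 10 cells, Stfa2l1 was at 55.2 CPM there and the other stefin A-type genes had no UMI. Summed over the 6 genes, the top class had 55.2 and 1544 CPM in siCont and 6856 and 8154 CPM in siFXR1-LNA. The middle class, with 10 and 45 siCont cells, had 1012 and 5496 CPM in siCont and 3528 and 4351 CPM in siFXR1-LNA. There siCont replicate 2 was above both siFXR1-LNA libraries. Cells without granule UMIs had 757, 2165, 2190 and 3429 CPM.

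**Figure D3:**
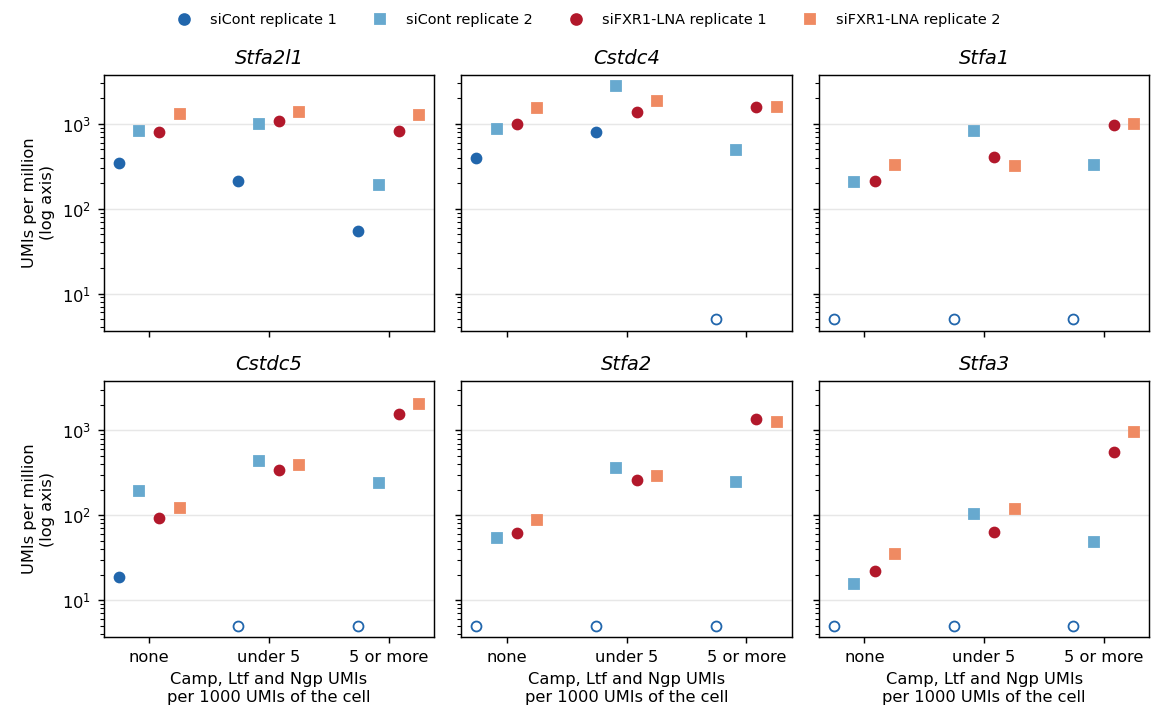
CPM without hemoglobin (log axis) of each of the 6 stefin A-type genes in granulocytes grouped by their Camp, Ltf and Ngp UMIs per 1000, one point per library, hollow where 0. In the siFXR1-LNA libraries Cstdc5, Stfa2 and Stfa3 were higher from class to class, and Stfa2l1 in the top class was near its level in cells with none.

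The clustering split the granulocytes mainly by group. The granulocyte subcluster led by Camp, Ifit3b, Ltf, Ngp and Ifit3 held all 444 granulocytes of siCont replicate 1 and 889 of the 902 of siCont replicate 2. It held only 101 and 337 cells of siFXR1-LNA. It also had raised mast cell and erythrocyte markers, and 95.5% and 91.8% of siCont granulocytes had no Camp, Ltf or Ngp UMI, so it does not match the classes above. Within it Cstdc5 was at 12.7 and 167 CPM in siCont and 928 and 857 CPM in siFXR1-LNA. These values set nearly all siCont granulocytes beside a selected few of siFXR1-LNA, and no group difference is read from them. The summed stefin A-type level there was 542 and 1774 CPM against 4544 and 3377 CPM. The other subcluster held 5364 and 4457 siFXR1-LNA cells and 0 and 13 siCont cells, and gives no comparison. Of the listed specific granule genes, 3 of 6 tested were lower in siFXR1-LNA granulocytes, namely Camp (log2 fold change -4.47, edgeR adjusted p = 0.00193), Ltf (-3.54, adjusted p = 0.00614) and Ngp (-2.51, adjusted p = 0.0330), the same 3 genes that made the classes. The other 3 had values above 0 and did not pass: Lcn2 (2.27, edgeR adjusted p = 0.0884), Chil3 (2.44, adjusted p = 0.0905) and Mmp8 (0.55, adjusted p = 0.750). Of the primary granule genes 2 of 5 were lower, Prtn3 (-2.94, edgeR adjusted p = 0.0449) and Ms4a3 (-3.93, adjusted p = 0.0486). Without siFXR1-LNA replicate 1 the adjusted p of Ngp was 0.118 and that of Prtn3 0.183, and without siCont replicate 2 the value of Ms4a3 turned to 6.52 (adjusted p = 0.569).

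Cstb followed another pattern over cell types. Macrophages, named by markers such as Adgre1, Csf1r and C1qa, were highest in each library, with 594 and 474 CPM in siCont and 941 and 973 CPM in siFXR1-LNA. Means were 534 ± 84.4 and 957 ± 22.3 CPM (SD, n = 2), a log2 ratio of 0.84, and the groups did not overlap. Macrophages held 53.1% and 67.4% of the Cstb UMIs of kept cells in siCont and 38.2% and 72.2% in siFXR1-LNA, where the unnamed group of replicate 1 held 45.6%.

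Below the macrophages, migratory DCs had 421, 387, 402 and 341 CPM of Cstb, and their groups overlapped. Granulocytes came at 322, 155, 478 and 503 CPM, and the unnamed cells at 225, 276, 434 and 328 CPM. B cells had 147, 76.9, 298 and 253 CPM and T cells 175, 77.0, 319 and 264 CPM. The cluster named epithelial had 3 of 5 epithelial and 2 of 5 fibroblast markers raised. Matching clusters stayed unnamed at resolution 0.3 and with at least 500 genes per cell. These epithelial cells had 245, 196, 250 and 233 CPM of Cstb and their groups overlapped. Neighbours in this order overlapped over the libraries, and only macrophages stood above every other type within each library. Lymphoid cells differed by group in the same direction as macrophages, at a lower level, and what part free RNA had in this was not tested.

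Among macrophage subclusters Cstb differed more than between the groups. In the subcluster led by Alox15, Prg4 and Lrg1, present in all libraries with 1276 to 3126 cells, it was at 702 (replicate 1) and 541 CPM in siCont and 638 and 720.5 CPM in siFXR1-LNA, and the groups overlapped. The subcluster led by Nos2, Cxcl3 and Slc7a11, with 2588 and 2217 siFXR1-LNA cells and 0 and 1 siCont cells, had the highest level, 1080 and 1145 CPM. The Ace-led subcluster, with 1033 and 712 siCont cells, had 561 and 595 CPM. The subcluster with Ffar2 and Mgl2 had 214, 175, 231 and 230 CPM, and the dividing one led by Birc5 had 456 (replicate 1), 316, 569 and 658 CPM. Where the same subcluster could be set side by side in both groups, Cstb was thus separated by group in the Birc5-led one, with 24 and 45 siFXR1-LNA cells, and in the Ffar2 and Mgl2 one by a small margin.

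**Figure D4:**
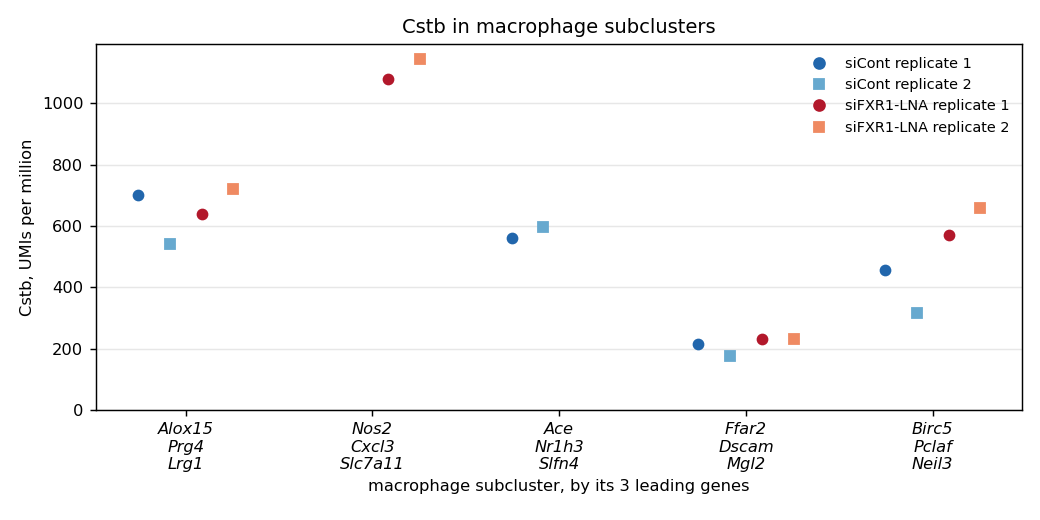
Cstb CPM (linear axis from 0) in macrophage subclusters with at least 10 cells in a library, one point per library. The Nos2-led subcluster, with 2588 and 2217 siFXR1-LNA cells and no more than 1 siCont cell per library, was highest at 1080 and 1145 CPM, and the Alox15-led subcluster overlapped between groups at 541 to 720.5 CPM.

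At least 1 Cstb UMI was found in 74.6% and 78.9% of siCont macrophages and in 83.9% and 89.3% of siFXR1-LNA macrophages. B cells had 30.2%, 21.0%, 47.5% and 44.9%. Thinned to 500 UMIs per cell, macrophages had 21.8%, 18.5%, 30.8% and 31.9% and B cells 7.60%, 4.13%, 14.1% and 12.2%. Granulocytes thinned in the same way had 16.1%, 8.56%, 21.7% and 22%, so that Cstb in siFXR1-LNA granulocytes stood between B cells and macrophages.

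The other cystatins and the proteases they inhibit were taken as lists, with edgeR's quasi-likelihood test and Benjamini-Hochberg adjustment over all genes. Of 8 other type 1 cystatins, 4 were testable in granulocytes and 0 passed with edgeR, where 2 (Csta2 and Csta3) were under an unadjusted p of 0.05 and passed with DESeq2 (adjusted p = 0.0144 and 0.0397). Csta2, a stefin gene of the same array, was at 25.4 and 39.4 CPM in siCont granulocytes and 106 and 169 CPM in siFXR1-LNA (log2 fold change 1.78 ± 0.47, adjusted p = 0.0681). Csta3 was at 6.34, 13.1, 37.6 and 53.5 CPM (1.83 ± 0.49, edgeR adjusted p = 0.0690), and Cstdc6 was at -1.45 ± 0.88 on the log2 scale. Without siCont replicate 1 or without siCont replicate 2 both Csta2 (adjusted p = 0.00515 and 0.000121) and Csta3 (0.00908 and 0.000313) passed. Among the 90-base windows of its last 300 bases, 21.3% of Csta2 were also in Cstdc4.

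In macrophages 3 of these type 1 cystatins were testable, and Csta2 and Csta3 were higher in siFXR1-LNA. Csta2 was at 1.15 and 0.524 CPM in siCont and 34.0 and 35.7 CPM in siFXR1-LNA (5.51 ± 0.32, adjusted p = 0.00472). B cells had 3.35, 1.94, 6.51 and 10.8 CPM of Csta2 and T cells 7.37, 4.79, 4.79 and 7.02 CPM. Unlike the stefin A-type sum, Csta2 in siFXR1-LNA macrophages was thus above the B cell level of the same libraries. Csta3 was at 0, 0.0953, 1.73 and 1.66 CPM in macrophages, close to the 0, 0, 1.50 and 2.28 CPM of B cells. Its call (5.33 ± 0.85, edgeR adjusted p = 0.0199) rests on these low levels. It was lost without siFXR1-LNA replicate 1 (adjusted p = 0.114) and without siFXR1-LNA replicate 2 (0.0911). With at least 500 genes per cell the Nos2-led macrophages lost their name, and among the macrophages that remained Csta2 reached 0.86 on the log2 scale (adjusted p = 0.826).

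Of 15 secreted and kininogen-type cystatins, 6 were testable in each type. Fetub, which encodes the liver protein fetuin-B, was higher in siFXR1-LNA in granulocytes (3.26 ± 0.47, adjusted p = 0.00602) and in macrophages (3.24 ± 0.69, adjusted p = 0.0370). It was at 91.7 and 58.2 CPM in siFXR1-LNA B cells as well, above the 30.8 and 16.1 CPM of macrophages, and at 124 and 82.3 CPM in the unnamed cells, where Fetub was among the leading genes. Cst3, encoding cystatin C, was lower in siFXR1-LNA macrophages, with 3067 and 3285 CPM in siCont and 1258 and 1415 CPM in siFXR1-LNA (-1.08 ± 0.19, adjusted p = 0.0253). The 6 DC markers summed to 49.6 and 65.2 CPM in siCont macrophages and to 10.5 and 14.7 CPM in siFXR1-LNA, with only Xcr1 at 0 and in siFXR1-LNA replicate 1 alone. The subcluster with Ffar2 and Mgl2 numbered 770 and 431 cells in siCont and 185 and 229 in siFXR1-LNA. The part of either in the Cst3 difference was not tested. The highest Cst3 levels were in DCs, at 23945, 26334, 17998 and 22138 CPM. Leaving out siFXR1-LNA replicate 1 or 2 ended the macrophage calls of Cst3 (adjusted p = 0.169 and 0.0995) and of Fetub (0.177 and 0.0912). So in macrophages the intracellular inhibitor Cstb and the secreted inhibitor Cst3 had differences of opposite sign.

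Of the 11 cysteine cathepsins and legumain, all tested in both types, only Ctsl passed in either. Cathepsin L is a lysosomal endopeptidase and a target of both stefins. Ctsl was at 316 and 307 CPM in siCont macrophages and 1428 and 1309 CPM in siFXR1-LNA macrophages (2.31 ± 0.17, adjusted p = 0.00584). In granulocytes it was at 166 and 89.0 CPM in siCont and 1051 and 690 CPM in siFXR1-LNA (2.58 ± 0.46, adjusted p = 0.0159). B cells had 96.6, 27.9, 876 and 480 CPM and T cells 123, 29.2, 998 and 559 CPM, so the same separation was present in lymphoid cells. The unnamed cells had 1431 and 788 CPM of Ctsl in siFXR1-LNA. What part free RNA of these cells had in it was not tested. The granulocyte call of Ctsl was lost without siFXR1-LNA replicate 1 (adjusted p = 0.157), and the macrophage call with at least 500 genes per cell (log2 fold change 0.97, adjusted p = 0.132). Ctsb, encoding cathepsin B, was at 2553, 2044, 1171 and 1865 CPM in macrophages (adjusted p = 0.326), and Ctss, encoding the antigen-processing cathepsin S, at 1747, 1955, 1421 and 1625 CPM (adjusted p = 0.712).

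**Figure D5:**
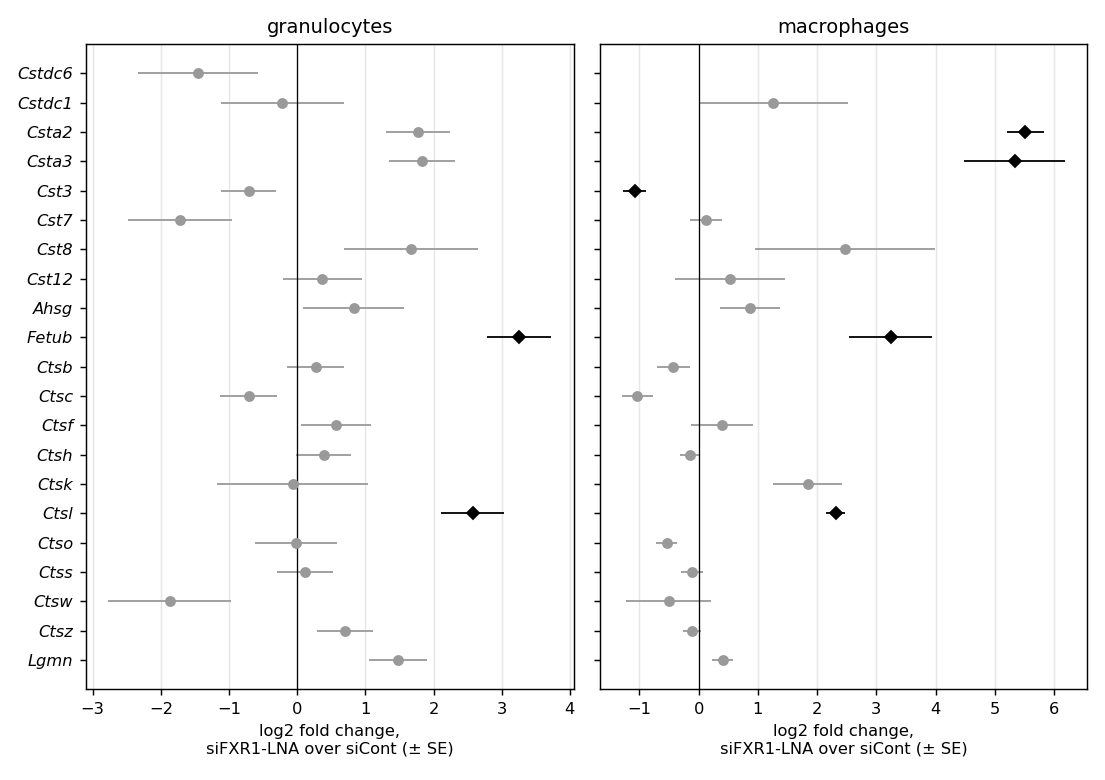
Log2 fold change of siFXR1-LNA over siCont (edgeR fit, bars are 1 SE) for the listed cystatins and cathepsins that could be tested in granulocytes and macrophages. Black diamonds passed an adjusted p of 0.05 and grey circles did not, with Ctsl and Fetub black in both types, Csta2 and Csta3 in macrophages, and Cst3 the only one lower.

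Over 38 pairs of a type and a library with at least 50 cells, the log2 levels of the stefin A-type genes ran together. Pearson's r between members was 0.69 (Stfa2 with Stfa2l1) to 0.957 (Stfa2l1 with Cstdc4), and it was 0.225 to 0.374 between any of them and Cstb. Among 13895 genes considered, those most like the stefin A-type sum were Il1r2, the decoy receptor for interleukin-1 (r = 0.952), Mmp8, the neutrophil collagenase (0.943), S100a8 (0.936), Retnlg (0.925) and Fpr2, a formyl peptide receptor (0.923). S100a8 and Retnlg are among the markers that named the granulocytes. Those most like Cstb were Atp6v0c, a subunit of the vacuolar proton pump (0.938), Lamp1, a lysosomal membrane protein (0.923), Cdkn1a (0.893), Atf3 (0.876) and Dram1 (0.875). The points share libraries and free RNA, so these values describe likeness over these samples.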

How the data were processed

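Single-cell RNA was measured in 4 libraries of mouse ascites, 2 labelled siCont and 2 labelled siFXR1-LNA. The deposited values are raw UMI counts, as genes by barcodes and 1 matrix per library, with no normalization by the authors. The submitters' processing notes name Cell Ranger 7.0.0 and mm10. The labels name a v2 chemistry and the design text a v3.1 kit. Of 133849 barcodes, 132644 had 100 to 4800 genes and at most 15% mitochondrial UMIs, the limits of the study's methods, which is more than the study analysed. No doublet caller was run: the upper gene limit was the only general guard, and subclusters of macrophages or T cells with markers of another type were set aside as mixed.

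Counts were scaled to 10000 per cell and clustered in Seurat 5.3.0 (R 4.3.3) from 2000 variable genes, without the 7 members, with 50 principal components, a resolution of 0.1 and no integration. A cluster took a name from at least 3 raised markers (2 times the mean of the other clusters, in at least 5% of its cells). For erythrocytes the median cell also had to have 30% of its UMIs from hemoglobin genes. UMIs were summed per type and library, and CPM is a gene's sum per 1000000 UMIs of that type. The sums were tested with edgeR 4.0.16 (TMM, filterByExpr, quasi-likelihood test, Benjamini-Hochberg over all genes, threshold 0.05) for genes that are not members. DESeq2 1.42.0, other filters and left-out libraries were alternatives. The number of libraries was the n, so p-values measure the spread between pools of 3 mice. The test was tried on simulated data.

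Shares of cells with a UMI were thinned to 500 UMIs by expectation, which left out no granulocyte, macrophage or B cell. Genes named in the text are the members, the genes of the listed families that passed or were most abundant, and the 5 genes closest to each member pattern by Pearson's r of log2(CPM + 1). The members, the naming rule and all lists were chosen with earlier results of these data known. Gene coordinates are from GENCODE vM21 and upstream sequences from RefSeq, which gave an entry for 6 of the 7 members and none for Cstb.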

Additional observations from a re-analysis of the deposited data

Results flagged for a closer look

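Among the listed cathepsins and neutrophil genes, 5 had both siFXR1-LNA libraries on one side of both siCont libraries in granulocytes and on the other side in macrophages. The share of all genes that do so was not counted. Of all genes tested, 34.7% had both siFXR1-LNA libraries above in granulocytes (19.9% without hemoglobin), and 24.1% in macrophages. The values below are log2 ratios of mean CPM with hemoglobin in the totals, siFXR1-LNA over siCont. The difference between the 2 cell types was not tested. Ctsb, encoding cathepsin B, had 0.501 in granulocytes and -0.598 in macrophages. Ctsh, encoding the aminopeptidase cathepsin H, had 0.627 and -0.325, and Ctsz, encoding the carboxypeptidase cathepsin Z, had 0.911 and -0.282. Mmp9, encoding gelatinase B, had -0.875 and 4.10, and Csf3r, encoding the receptor for granulocyte colony-stimulating factor, had -1.58 and 0.807. The 7 granulocyte markers, which include Mmp9 and Csf3r, summed to 120 and 524 CPM in siCont macrophages and to 1323 and 1549 CPM in siFXR1-LNA macrophages, none of them at 0, and their part in these macrophage values was not tested. For the 3 cathepsins neither change passed edgeR's test in its own cell type. Their granulocyte log2 fold changes in the edgeR fit were smaller, at 0.27 ± 0.42 (Ctsb), 0.39 ± 0.40 (Ctsh) and 0.70 ± 0.41 (Ctsz, SE).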

How the results depend on the processing

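The number of genes passing was 389 in granulocytes. It was 601 with DESeq2, 0 with no filter on low counts (2071 at an unadjusted p under 0.05) and 1344 with the replicate number as a block (replicate block). Leaving out 1 library gave 148 (without siFXR1-LNA replicate 1) to 2362 (without siCont replicate 1). In macrophages it was 2752, with 371 to 2008 after leaving out 1 library and 53 with at least 500 genes per cell. That cell filter left the Nos2-led cluster unnamed and 3945, 1901, 56 and 1051 macrophages, and with it the Cstb difference in macrophages was 0.29 on the log2 scale in place of 0.85. Il1b turned to -1.11 (adjusted p = 0.377) there, and Ms4a3 in granulocytes went from -4.70 to 6.52 over the left-out libraries, turning without siCont replicate 2. The share of granulocytes with a Cstb UMI differed by 17.6 percentage points at 1000 UMIs per cell and by 9.49 at 500. The other 52 alternative values for the stefin levels and counts moved by less than the spread between libraries or less than 1.5 times, but that spread is wide. Leaving out 1 library took the stefin A-type log2 difference from 1.53 to between 0.67 and 2.39 in granulocytes and from 3.83 to between 2.69 and 4.96 in macrophages (2.41 with at least 500 genes per cell), and that of Cstb in granulocytes from 1.13 to between 0.60 and 1.66. Of the values for single genes, 846 kept their direction and side of the threshold or moved by less than the spread, 96 came to pass the threshold and 48 no longer passed it.

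Same-numbered libraries deviated together only weakly (r = 0.370 in granulocytes and 0.365 in macrophages, over genes), the labels do not say what a number shares, and there are only 2 pairs. The hemoglobin alternative and the split by granule UMIs were chosen after seeing the data. With 2 pools a group and 444 granulocytes in siCont replicate 1, small differences between members could not be resolved.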
